A study of Mus musculus with 6 samples.

Results

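The outermost layers of the skin hold water with sheets of ceramide lipids. Keratinocytes of the upper epidermis make these lipids by lengthening fatty acids to very long chains, adding an ω-hydroxyl group, joining the chain to a sphingoid base and linking linoleate to its end. The product is capped with glucose and loaded into lamellar granules, and after secretion its linoleate is oxidized so that the ceramide can be bound to the protein envelope of the dead cells. The 9 mouse genes described here encode steps of that route. They were chosen by function and matched by symbol to the gene IDs of a rib cage count table, where each matched a single ID, so that 9 of 55487 gene IDs are members. In the order of the route they are Elovl4, Cyp4f39, Cers3, Pnpla1, Ugcg, Abca12, Alox12b, Aloxe3 and Sdr9c7.

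RNA-Seq was run on the rib cages of 6 embryos taken at 16.5 dpc (days post coitum). The 3 control embryos, E420, E434 and E435, are labelled wild type. The 3 mutant embryos, E423, E433 and E440, are labelled Col2-cre;Foxc1-/-;Foxc2-/-. The mutants came from males with Col2-cre and 1 deleted copy of each gene, mated to females homozygous for floxed Foxc1 and Foxc2, on a mixed C57B6 and Black Swiss background, and the methods name littermates as the animals compared without saying which embryos shared a litter. Col2-cre, which is driven by a type II collagen promoter, deletes the 2 transcription factor genes in chondrocyte progenitors, and cells in which it is not active keep a floxed copy. Whether the controls also carry floxed or deleted alleles is not given with the label. A littermate from that cross would carry at least 1 floxed copy of each gene, from its mother.

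Library totals ran from 37853988 to 47794799 counts. Levels below are CPM, counts scaled to a common library size, after TMM scaling, which corrects library totals for composition, and 1 count was worth 0.0206 to 0.0255 CPM. Foxc1 stood at 23.1, 36.9 and 24.2 CPM for E420, E434 and E435, and the mutants E423, E433 and E440 stood at 3.56, 9.61 and 3.51 CPM. Foxc2 was lower in all 3 mutants as well, at 0.649 to 1.14 CPM against 1.99 to 4.83 CPM. The libraries did not group by genotype alone. E420 and E435 lay close together, with an SD of 0.153 for the log2 ratio over genes, and so did E423 and E440, with 0.132, while every other pair had an SD of 0.471 to 1.37. Both close pairs differed by more than counting noise and were kept as separate samples.

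The tissue is labelled rib, and the study chose it because tissue other than skeleton could be removed well. How much skin each sample kept is not stated, and epidermal marker levels differed between libraries. The summed level of 13 suprabasal keratinocyte markers, among them Krt1, Krt10 and Lor, was 5440 CPM in E420, 12.1 CPM in E434 and 6250 CPM in E435, against 29900, 3270 and 30100 CPM for the mutants E423, E433 and E440. In E434, 5 of these 13 markers had 3 counts or fewer, with Dsc1, Dsg1a and Flg at 0. The sum of 7 cartilage markers ran the other way, at 923, 19400 and 869 CPM in controls, against 275, 6920 and 260 CPM in mutants. Of other tissues, 6 muscle markers summed to 13000 to 30000 CPM in every library, 7 liver markers to 629 CPM in E433 and 30.4 to 50 CPM elsewhere, and 7 lung epithelium markers to at most 2.14 CPM. Krt10, the keratin of cells that have left the basal layer, stood at 2332, 6.464 and 2594 CPM in E420, E434 and E435, against 11910, 1397 and 12050 CPM in E423, E433 and E440. Fewer keratinocytes and less RNA per keratinocyte cannot be told apart in bulk RNA. The part of these epidermal and cartilage levels in the results below was not tested.

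The start of the route is the making of the long ω-hydroxylated chain. Elovl4, an elongase of very-long-chain fatty acids (ENSMUSG00000032262.13, GRCm38 chr9:83778692-83806277, minus strand), had 130.5, 5.361 and 120.2 CPM in E420, E434 and E435. In the mutants E423, E433 and E440 it had 229.1, 51.86 and 205.5 CPM. A control lay lowest, a mutant lay between that control and the others, and so the groups overlapped. Cyp4f39, the mouse counterpart of the human ω-hydroxylase CYP4F22 (ENSMUSG00000061126.5, chr17:32452723-32493320, plus strand), had 30.67, 0.08825 and 30.03 CPM in the controls. Its mutant levels were 38.13, 11.21 and 34.46 CPM. E434 held only 4 Cyp4f39 counts, and the distance between E420 and E435 on one side and E423 and E440 on the other was small beside the gap to E433 and E434.

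The chain is then built into an acylceramide. Cers3, the ceramide synthase that accepts the longest chains (ENSMUSG00000030510.11, chr7:66743504-66823691, plus strand), had 28.78, 0.3089 and 25.07 CPM in E420, E434 and E435, against 72.45, 9.838 and 68.70 CPM in E423, E433 and E440. Pnpla1, which transfers linoleate to the ω-hydroxyl end (ENSMUSG00000043286.12, chr17:28858411-28890309, plus strand), had 14.68, 0.04412 and 13.34 CPM in controls, against 38.39, 5.986 and 33.74 CPM in mutants. For both genes E423 and E440 were the highest libraries, E420 and E435 followed, and E433 and E434 lay below them. The antisense gene Pnpla1os shares 644 exon bases with Pnpla1, and strand was not used in counting, but it had 0 counts in 5 libraries and 2 in E440.

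Glucosylation and packaging follow. Ugcg, the glucosylceramide synthase that most cell types use (ENSMUSG00000028381.8, chr4:59189257-59222833, plus strand), had 71.46, 64.20 and 66.56 CPM in controls, against 80.00, 71.79 and 76.28 CPM in mutants. It was the only member whose level in E434 and E433 was near that of E420 and E435, and the mean was 67.4 ± 3.71 CPM in controls, against 76.0 ± 4.11 CPM in mutants (SD, n = 3). Abca12, the lipid transporter of lamellar granules (ENSMUSG00000050296.14, chr1:71242276-71414910, minus strand), had 34.41, 0 and 31.27 CPM in controls, against 103.4, 14.85 and 100.8 CPM in mutants. The 0 counts in E434 allow up to 3 counts, or 0.0662 CPM.

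The last steps work on the linoleate of the finished lipid. Alox12b, the 12R-lipoxygenase that acts first (ENSMUSG00000032807.5, chr11:69156989-69169792, plus strand), had 44.84, 0.04412 and 45.06 CPM in E420, E434 and E435, against 162.0, 18.79 and 157.2 CPM in E423, E433 and E440. Aloxe3, which converts the hydroperoxide made by Alox12b (ENSMUSG00000020892.10, chr11:69125896-69149115, plus strand), had 6.312, 0.3971 and 6.905 CPM in controls, against 51.14, 4.501 and 52.05 CPM in mutants. Sdr9c7, the dehydrogenase of the step after that (ENSMUSG00000040127.13, chr10:127898518-127911761, plus strand), had 18.15, 0 and 17.67 CPM in controls, against 87.68, 7.401 and 85.69 CPM in mutants. All 3 genes had the same order of libraries as Cers3 and Pnpla1, and their distance between the close pairs was wider. Aloxe3 and Alox12b are neighbors on the same strand with 7873 bases between them.

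**Figure D1:**
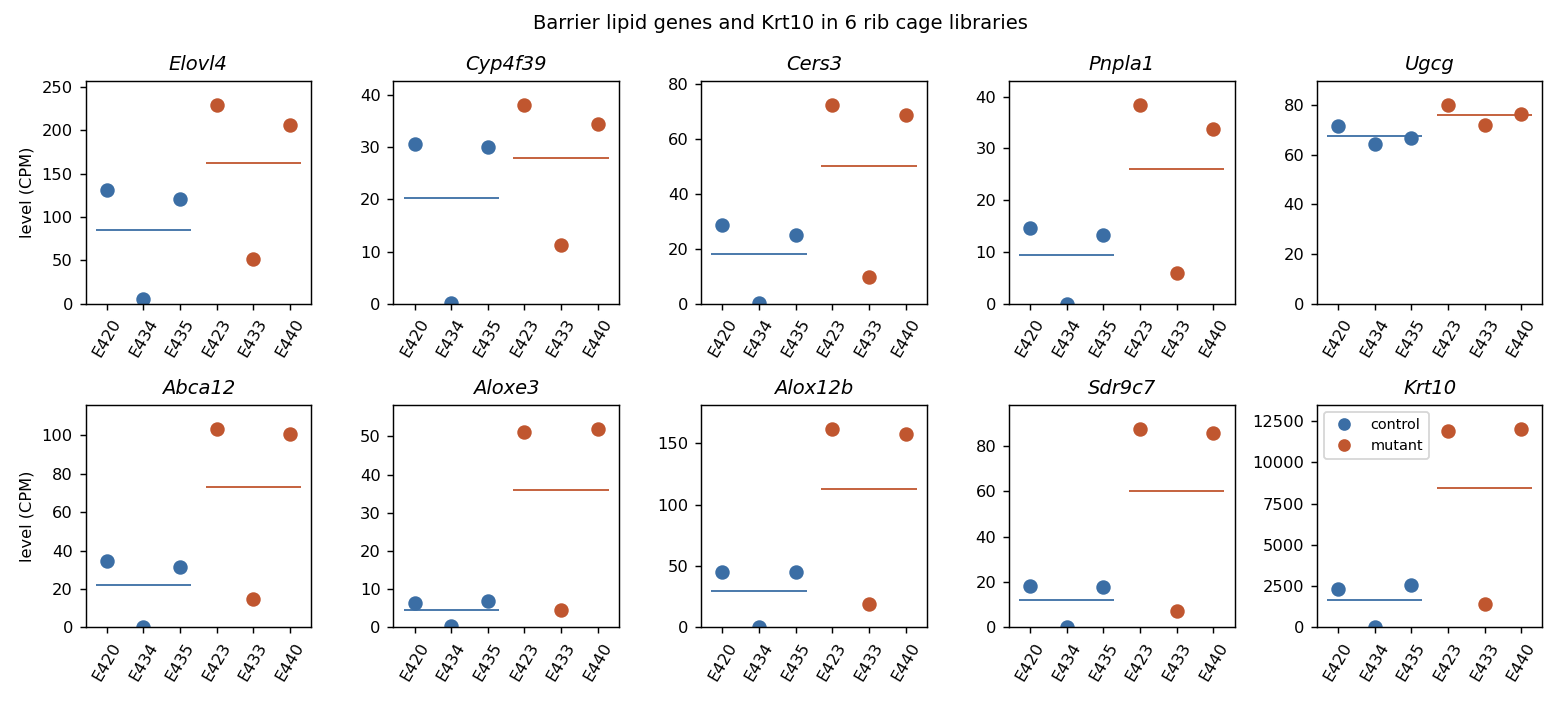
Level in CPM (linear axis from 0) of the 9 members and of Krt10 in each of the 6 libraries, with controls in blue, mutants in orange and a line at each group mean. E434 is lowest and E423 and E440 are highest for every gene drawn, but for Ugcg the 6 libraries span only 64.20 to 80.00 CPM.

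The order of libraries was thus E434, then E433, then E420 and E435, then E423 and E440 in 8 of 9 members, all but Ugcg. The same order held in 5.72% of the 26596 genes tested. It held in 7 of 8 basal and 12 of 13 suprabasal keratinocyte markers. The 5 genes outside every list whose log2 levels over the 6 libraries were most like the members' mean were Gm3776, Adgrf4, Mal2, Tprg and Aldh3b2, each with a Pearson r of at least 0.9997, and 192 of 26454 such genes had an r above 0.99. These correlations share 6 libraries that differ in epidermal content and are given as a description.

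The promoters of the members are of unlike kinds, and 5 are shown that span the patterns above. Each line gives the 100 bases before the RefSeq start on GRCm38.p6, 5′ to 3′ on the gene's strand, with every CG in capitals. RefSeq starts can differ from the GENCODE gene bounds given above, and the Ugcg and part of the Sdr9c7 stretch lie inside those bounds. The lines are Sdr9c7 (chr10:127898435-127898534, plus strand) and Abca12 (chr1:71414911-71415010, minus strand), which had 0 counts in E434, Cers3 (chr7:66743404-66743503, plus strand) from the middle, Elovl4 (chr9:83806306-83806405, minus strand), which kept some reads there, and Ugcg (chr4:59189450-59189549, plus strand), which was steady.
Sdr9c7: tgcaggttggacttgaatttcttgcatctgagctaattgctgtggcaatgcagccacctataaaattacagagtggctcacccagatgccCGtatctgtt
Abca12: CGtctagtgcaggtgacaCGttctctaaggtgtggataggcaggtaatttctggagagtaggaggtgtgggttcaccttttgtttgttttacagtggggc
Cers3: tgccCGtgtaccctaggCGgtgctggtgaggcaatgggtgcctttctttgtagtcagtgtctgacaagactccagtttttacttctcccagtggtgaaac
Elovl4: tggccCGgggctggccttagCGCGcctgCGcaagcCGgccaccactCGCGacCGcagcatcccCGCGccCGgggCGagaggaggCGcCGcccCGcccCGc
Ugcg: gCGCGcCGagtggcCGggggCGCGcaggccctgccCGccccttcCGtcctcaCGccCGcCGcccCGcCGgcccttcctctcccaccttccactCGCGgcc

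Over 250 bases before the start, 8 of the 9 members matched a RefSeq promoter. Ugcg had 43 CG pairs, as many as or more than 99.5% of 27025 promoters, and Elovl4 had 25, at 90.8%. Alox12b had 11, Cyp4f39 10, Cers3 6, Pnpla1 5, Abca12 5 and Sdr9c7 2, where the median of all promoters was 6. Ugcg, whose level was steady, and Elovl4, with 5.361 CPM left in E434, had the most CG, which is a description of 8 genes. Aloxe3 had no RefSeq promoter and is not among them. It kept a larger share of the mean of E420 and E435 in E434 than Elovl4 did, 6.01% against 4.28%. Of 5 motifs searched on both strands in those 250 bases, TATAAA was found in Sdr9c7 (13.0% of all promoters), the letters GGGTGTGG in Alox12b (3.19%), and TGANTCA, AACCNGTT and TTNNGCAA (6.87%, 1.71% and 9.55% of all promoters) in none of the 8.

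The question of the design is whether the genes differ between control and mutant rib cages. With all 6 libraries, 0 of 9 members were called higher and 0 of 9 lower by edgeR's quasi-likelihood test (adjusted p under 0.1, and at least 1 for the size of the log2 fold change), against 0.0338% and 0.0301% of all genes tested. DESeq2's Wald test also called 0 of 9 in either direction, where it called 1.33% of all genes higher and 0.459% lower. The targeted genes were not called by edgeR's test either. Foxc1 had a log2 fold change of -2.337 (edgeR adjusted p of 0.235) and Foxc2 of -1.989 (0.239). DESeq2's Wald test gave them adjusted p of 9.63e-07 and 0.000207. The lack of a call in edgeR's test thus does not show that a gene was unchanged. At an unadjusted p under 0.05, edgeR's test picked 1 of 9 members, Aloxe3, against 10.6% of all genes, and DESeq2's picked 1 of 9 against 11.1%. The fitted log2 fold change (mutant over control) was above 0 for 9 of 9 members, with a median of 1.48, where 51.2% of all genes were above 0 (52.3% in DESeq2's fit) and the median was 0.0081. Groups overlapped in 8 of 9 members. Mutants lay above all controls only for Ugcg, as for 6.81% of genes (8.21% lay wholly lower), by 71.79 against 71.46 CPM, and in the authors' TPM from the other pipeline (26.16, 26.65 and 24.82 in mutants, 25.54, 23.12 and 22.73 in controls) its groups overlapped.

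Among the members, the fitted differences were largest for the late steps of the route and smaller for the early ones, with wide standard errors, and differences between members were not tested. For Aloxe3 the log2 fold change was 2.98 with a standard error (SE) of 1.19 and an edgeR adjusted p of 0.459. For Sdr9c7 it was 2.34 (SE 1.56) with an edgeR adjusted p of 0.63. For Alox12b it was 1.91 (SE 1.55) and for Abca12 1.74 (SE 1.54). Cers3 and Pnpla1, the acylceramide pair, had almost the same values, 1.48 (SE 1.31) and 1.48 (SE 1.37). Elovl4 had 0.93 (SE 1.05) and Cyp4f39 0.46 (SE 1.34), neither larger than its error. Ugcg had the smallest difference and by far the smallest error, 0.17 (SE 0.08, edgeR adjusted p of 0.494).

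**Figure D2:**
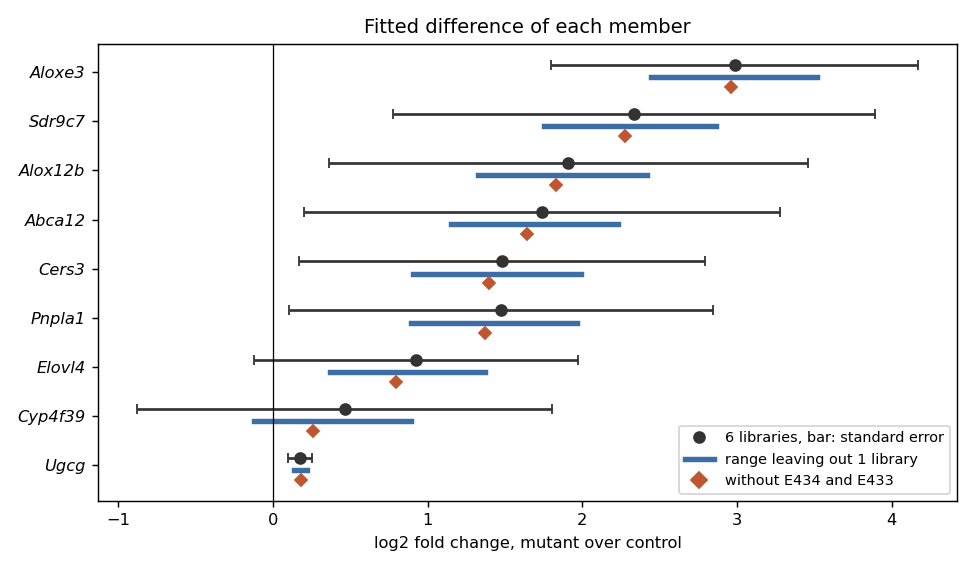
Log2 fold change of each member, mutant over control, with all 6 libraries (black points, bars show the standard error), the range of values when 1 library is left out (blue lines) and the value without E434 and E433 (orange diamonds). Aloxe3 stands highest at 2.98, Cyp4f39 crosses 0 when a library is left out, and Ugcg stays between 0.14 and 0.22.

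A single library decided the call for Aloxe3. Without the mutant E433, which had the lowest epidermal content of the mutants, 1 of 9 members was called, Aloxe3, with a log2 fold change of 3.51 (SE 0.97) and an edgeR adjusted p of 0.0987. Of the 25844 genes tested in that fit, 734 were called higher and 353 lower. Its mutant group was the close pair E423 and E440 alone, so its errors rest partly on very similar libraries. The adjusted p of Aloxe3 lay just under the limit of 0.1. Without the control E434, Cyp4f39 turned to -0.12. With both E434 and E433 left out, 6 of 9 members were called higher by edgeR's test, namely Aloxe3, Sdr9c7, Alox12b, Abca12, Cers3 and Pnpla1, against 5.66% of the 25045 genes tested there, and 0 lower, against 2.59%. All 9 had a log2 fold change above 0 (49.5% of genes) and an unadjusted p under 0.05 in that fit, as did 39.8% of genes. The other 3, Elovl4, Cyp4f39 and Ugcg, had log2 fold changes of 0.80, 0.26 and 0.18, below the limit of 1. That choice of libraries was made with their levels known, and its errors rest on 2 pairs of very similar libraries, so the count describes those 4 libraries.

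Between the close pairs the ratio of mean CPM, E423 and E440 over E420 and E435, was graded. Aloxe3 stood at 7.81, above Krt10 at 4.86. Sdr9c7, at 4.84, was level with Krt10, and Alox12b at 3.55 and Abca12 at 3.11 lay below it. Cers3 at 2.62 and Pnpla1 at 2.57 were just above Krt14, the basal keratin, at 2.30. Elovl4 at 1.73 and Cyp4f39 at 1.2 were below both keratins, and Ugcg was at 1.13. Among the 9 members, in order along the route, the oxidation genes had the widest ratios and the chain-making genes, with Ugcg, the narrowest. Related genes outside the members did not all keep this order. The elongase genes Elovl7 and Elovl1 had ratios of 3.57 and 2.90, and the lipoxygenase gene Alox12 had 1.94. Over 21211 genes the median ratio was 0.99, and 5.61% were above 2, as were 6 of 9 members.

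The other libraries gave a different order. As a share of the mean of E420 and E435, the mutant E433 held 36.5% to 45.2% for 7 of the 9 members, and 68.1% for Aloxe3 and 104% for Ugcg. Krt10 stood at 56.7% and Krt14 at 53.9%, so 7 members were further below the control pair in E433 than either keratin was. Some other keratinocyte markers lay as low, with Krt15 at 35.3%, Sfn at 36.4%, Tgm1 at 39.1% and Dsc1 at 43.3%. The median was 47.2% for 8 basal markers and 48.4% for the 12 suprabasal markers with more than 3 counts in each library of the close pairs. In the control E434, Krt10 was at 0.262% and Krt14 at 0.448%. Aloxe3 kept 6.01% there (18 counts, exact Poisson 95% interval 3.56% to 9.5%) and Elovl4 kept 4.28% (243 counts, 3.76% to 4.85%), both above the keratins. Cers3 kept 1.15% (14 counts, 0.627% to 1.92%). Cyp4f39, Pnpla1 and Alox12b had 4, 2 and 2 counts, with intervals that reach 0.744%, 1.14% and 0.355% and overlap that of at least 1 of the 2 keratins. Abca12 and Sdr9c7 had 0 counts, with exact intervals that reach 0.248% and 0.454% and also overlap that of Krt10 (0.233% to 0.294%). These intervals cover counting error only. They treat each count as independent, but both ends of a read pair were counted, so they are too narrow.

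**Figure D3:**
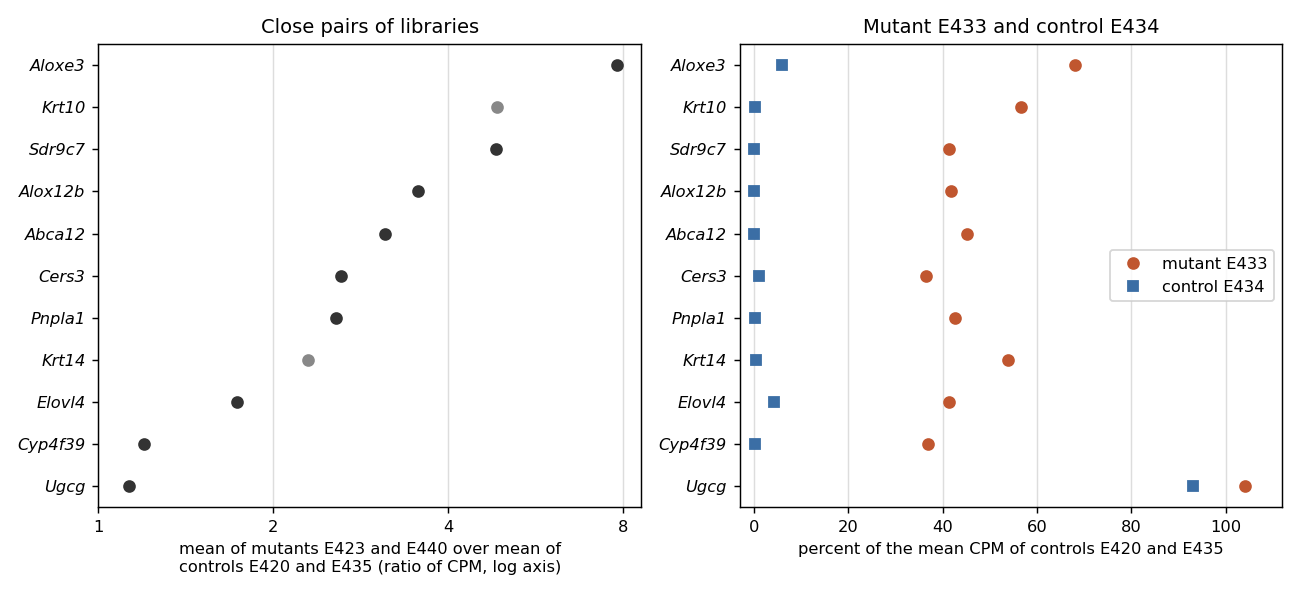
Left, ratio of the mean CPM of mutants E423 and E440 to that of controls E420 and E435 (log axis) for the 9 members (black) and 2 keratins (gray). Right, CPM in mutant E433 (circles) and control E434 (squares) as a percent of the mean of E420 and E435 (linear axis). Aloxe3 has the widest ratio at 7.81, and Ugcg alone stays near 100% in both libraries.

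Each member was then set beside the keratin of its own library. Per 1000 Krt10 reads, Elovl4 had 55.9, 829 and 46.3 reads in the controls E420, E434 and E435 and 19.2, 37.1 and 17.1 reads in the mutants E423, E433 and E440. Cyp4f39 had 13.2, 13.7 and 11.6 reads in the controls and 3.20, 8.02 and 2.86 in the mutants. Cers3 had 12.3, 47.8 and 9.66 in the controls and 6.08, 7.04 and 5.70 in the mutants. For these 3 genes every mutant was below every control. The exact permutation test, 2-sided, gave p = 0.1 for each, the smallest that 3 against 3 allows, and 0.25 after Benjamini-Hochberg adjustment over the 10 ratios tested (5 members with more than 3 counts in every library, each to 2 keratins). Pnpla1, not tested because it had 2 counts in E434, had 6.3, 6.83 and 5.14 reads in the controls and 3.22, 4.28 and 2.8 in the mutants. Its mutants were thus also below its controls. Krt10 itself ran from 6.464 CPM in E434 to 12050 CPM in E440. How many of all genes separate in this way beside Krt10 or Krt14 was not counted.

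Of the late genes, Alox12b lay on the same side in the close pairs, Sdr9c7 was level and Aloxe3 lay on the other side. Per 1000 Krt10 reads, Aloxe3 had 2.71, 61.4 and 2.66 reads in the controls and 4.29, 3.22 and 4.32 in the mutants, with E434 far above the rest (exact permutation p = 1). Sdr9c7 had 7.78 and 6.81 reads in E420 and E435, 7.36, 5.30 and 7.11 in the mutants, and none in E434. Alox12b, with 19.2, 6.83 and 17.4 reads against 13.6, 13.4 and 13.0, overlapped, with E434 resting on 2 counts. Between the close pairs the ratio to Krt10 in the mutant pair was 1.6 times that in the control pair for Aloxe3, 0.992 times for Sdr9c7, 0.728 for Alox12b, 0.636 for Abca12, 0.536 for Cers3, 0.527 for Pnpla1, 0.355 for Elovl4 and 0.245 for Cyp4f39.

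Beside Krt14, a marker of the basal layer, the ratios between the close pairs were higher than beside Krt10. Per 1000 Krt14 reads, Aloxe3 had 24.0, 321 and 23.9 reads in E420, E434 and E435 and 79.6, 30.3 and 83.3 in E423, E433 and E440, so that a control was highest (exact permutation p = 1). Sdr9c7 had 69.0 and 61.2 in that control pair, 49.8 in E433 and 136 and 137 in E423 and E440, with none in E434. Between the close pairs, Cers3 and Pnpla1 stayed near their control values, at 1.13 and 1.11 times them, while Elovl4 was at 0.751 and Cyp4f39 at 0.519. In E433, Cers3 had 66.2 reads against 109 and 86.9 in E420 and E435, and Pnpla1 had 40.3 against 55.8 and 46.2. In E434, Cers3 had 250 and Pnpla1 35.7, from 14 and 2 counts. Elovl4 had 496, 4340 and 417 reads in controls and 357, 349 and 329 in mutants, again with every mutant below every control (exact permutation p = 0.1, adjusted 0.25). The side on which Cers3, Pnpla1, Abca12 and Alox12b lay in the close pairs thus depended on the keratin used.

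**Figure D4:**
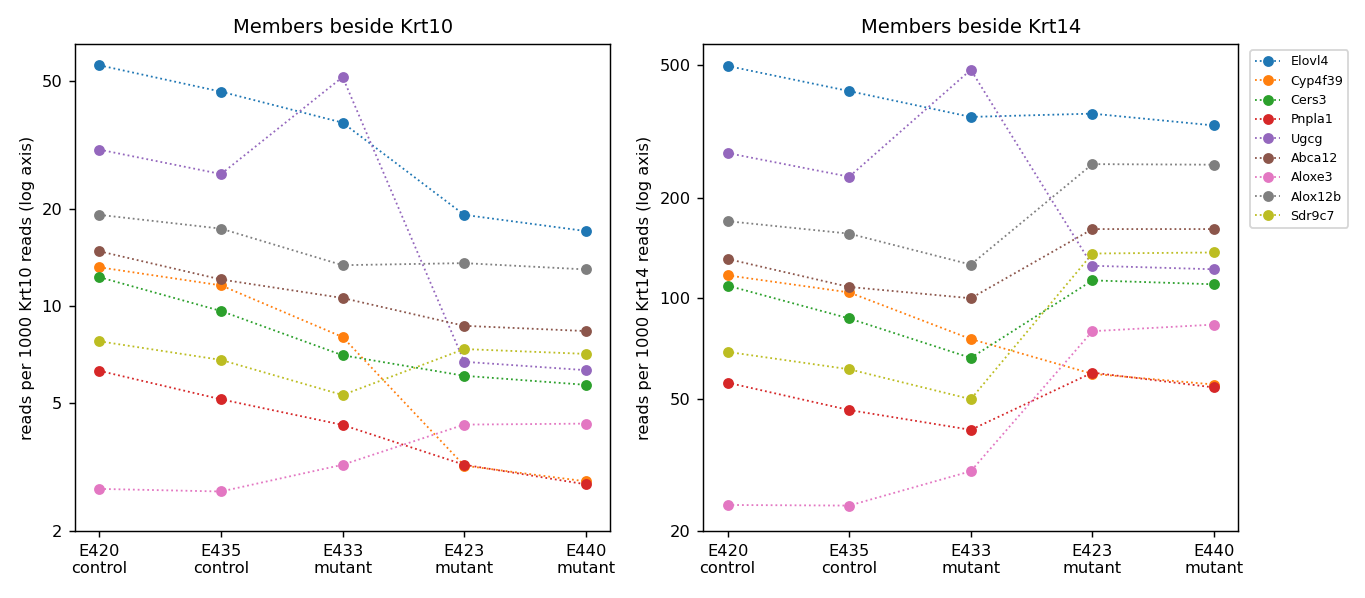
Reads of each member per 1000 Krt10 reads (left) and per 1000 Krt14 reads (right) on log axes in 5 libraries, joined by dotted lines to follow a gene. E434, with 293 Krt10 and 56 Krt14 counts, is not drawn. Beside Krt10, Elovl4 and Cyp4f39 are lower in the 3 mutants than in the 2 controls drawn and Aloxe3 is higher (61.4 in E434), and Ugcg peaks in E433.

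The 2 lipoxygenases did not keep a fixed proportion. Aloxe3 had 141 and 153 reads per 1000 Alox12b reads in the controls E420 and E435 and 316, 240 and 331 in the mutants E423, E433 and E440. The control E434 lay far above all of these, with 18 Aloxe3 counts over 2 Alox12b counts, or 9000 per 1000 (exact binomial 95% interval 2150 to 80000), so the groups overlapped. That interval is also too narrow, as both ends of a read pair were counted. The mutant E433, whose Aloxe3 level lay below E420 and E435, was above both in this ratio.

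Levels can be compared between genes only per length, here as CPM per kilobase of exon. Over E420 and E435, Elovl4 was highest of the members at 41.4, followed by Alox12b at 18.5, Ugcg at 13.2, Cyp4f39 at 10.6, Cers3 at 8.27, Sdr9c7 at 5.89, Pnpla1 at 2.90, Abca12 at 2.22 and Aloxe3 at 1.03. Over E423 and E440, Elovl4 at 71.8 and Alox12b at 65.6 were near each other, Sdr9c7 had 28.5 and Cers3 21.7, and Aloxe3 at 8.07 was no longer lowest, being above Pnpla1 at 7.46 and Abca12 at 6.90. Ugcg at 15 and Cyp4f39 at 12.7 had moved from the upper to the middle places. The lowest 3 of that pair were close, at 7.94 for Pnpla1, 6.99 for Abca12 and 7.99 for Aloxe3 in E423 and 6.98, 6.81 and 8.14 in E440, so that Pnpla1 lay beside Aloxe3 in one library and beside Abca12 in the other. In the authors' TPM, Aloxe3 stood clear of them, with 22.78 against 13.84 for Pnpla1 and 14.29 for Abca12 in E423 and 20.81 against 12.24 and 13.8 in E440, and above Cyp4f39 at 21.41 and 17.48.

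Other genes that work on epidermal lipids were read from the same fit. Of 18 such genes, 0 were called by edgeR's test and 0 by DESeq2's. In edgeR's, 2 had an unadjusted p under 0.05 (Fa2h and Lipn), near the 10.6% of all genes. Fa2h was near the floor, with 0, 2 and 2 counts in controls and 15, 2 and 15 in mutants. A log2 fold change above 0 was seen in 17 of the 18, against 51.2% of all genes, and the median was 1.23. The library order given above held in 14 of the 18. Nipal4, needed for acylceramide formation, had 20.59, 0.06619 and 17.87 CPM in controls, against 53.33, 8.585 and 52.92 CPM in mutants. Pla2g2f, a phospholipase of the upper epidermis, had 80.70, 0.04412 and 78.12 CPM against 246.1, 29.40 and 237.5 CPM. Abhd5, the cofactor of Pnpla1, was far less uneven, at 40.11, 19.46 and 40.71 CPM against 55.71, 28.54 and 55.17 CPM.

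Lipn and Flg, singled out after their values were seen, had the most uneven counts. Lipn, a lipase of granular keratinocytes, had 1, 0 and 0 counts in the controls and 159, 0 and 180 counts in E423, E433 and E440. Flg, the filaggrin gene of the same layer, had 4, 0 and 1 counts in the controls and 22712, 5 and 22215 in the mutants. With all 6 libraries DESeq2's test called it alone among the 21 keratinocyte markers. For these markers edgeR's called 0 and 2 had an unadjusted p under 0.05, against 10.6% of all genes. Both genes were nearly absent from E433, a library in which Krt10 still reached 1397 CPM. Other late genes were not like this, with Lor at 498, 1.809 and 901.5 CPM in controls, against 2700, 326.1 and 3116 CPM in mutants, and Casp14 and Tgm3 at 48.2% and 48.6% of the control pair in E433. No member had this on-and-off form. Aloxe3, the member with the widest ratio, was already at 248 and 335 counts in E420 and E435.

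Genes of sphingolipid metabolism that most cells use were steadier. Of 21, 0 were called by either test and 4 had an unadjusted p under 0.05 in edgeR's, against 10.6% of all genes. Their median ratio between the close pairs was 1.03, and in E434 they held 35.0% to 119% of the control pair. Cers2, Cers4, Cers5 and Cers6, relatives of Cers3, had ratios of 0.832, 1.05, 0.819 and 0.699. The 2 above 2 were Elovl1, an elongase that feeds chains into the Elovl4 step, at 2.90, and Smpd1, the acid sphingomyelinase, at 2.27. Elovl1 had 102.1, 36.42 and 105.8 CPM in controls, against 303.0, 69.21 and 300.8 CPM in mutants, with the same order of libraries as the members, an order that 7 of the 21 had.

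Among 40 relatives of the members by family, 38 had enough counts to be tested. Of these, edgeR's test called 0, with 4 at an unadjusted p under 0.05, against 10.6% of all genes. DESeq2's called 2 higher in mutants, Pnpla2 and Pnpla3, against 1.33% of all genes. Pnpla2, the triglyceride lipase of fat cells, had 13.87, 12.91 and 11.77 CPM in controls, against 49.89, 15.66 and 49.43 CPM in mutants, without the loss in E434 that Pnpla1 showed. The summed level of 6 adipocyte markers was 138 to 150 CPM in controls, against 632 CPM in E423, 212 CPM in E433 and 650 CPM in E440. The part of those cells in the Pnpla2 result was not tested.

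**Figure D5:**
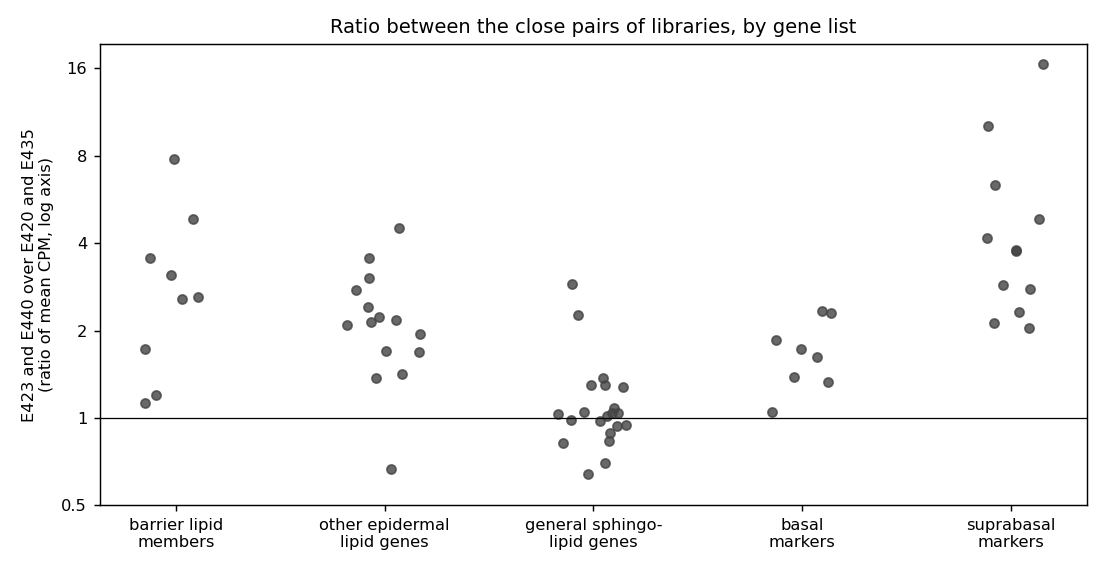
Ratio of mean CPM, E423 and E440 over E420 and E435 (log axis), for each gene with more than 3 counts in those 4 libraries, by list, with points spread sideways for legibility. Members have a median of 2.62, other epidermal lipid genes 2.14, general sphingolipid genes 1.03, basal markers 1.68 and suprabasal markers 3.77.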

How the data were processed

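RNA-Seq counts came from rib cages of 6 embryos, 3 control and 3 mutant, grouped by the sample labels. The authors aligned reads to GRCm38 with HISAT2 2.1.0 and deposited raw counts per gene from featureCounts 1.6.0 (exons, each end of a pair counted, strand not used, multi-mapping reads not counted). Also deposited by the authors were expected counts and TPM from STAR 2.7.6 and RSEM 1.2.31, used as alternatives for the fit (after rounding the expected counts) and for levels per length (TPM). Their tables of DESeq2 1.26.0 comparisons, with fold changes, p-values and another 12 per-sample columns, were not used.

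Counts of the 26596 genes with at least 10 summed counts were TMM-scaled and tested with edgeR 4.0.16 in R 4.3.3 (glmQLFTest, Benjamini-Hochberg over all genes). Limits of 0.1 on the adjusted p and 1 on the log2 fold change follow the study's methods. The study's results name a stricter false discovery rate, and its lists kept only genes that were consistent between both of its pipelines. Standard errors given for edgeR's fits are the size of the log2 fold change divided by the square root of the test's F statistic. DESeq2 1.42.0 was an alternative. Its own standard errors were larger for every member, such as 2.157 for Abca12 and 2.138 for Sdr9c7. P-values of these fits set the group difference against a spread between embryos that is estimated with information from all genes. That spread includes the uneven epidermal and cartilage levels of these libraries. The members, gene lists and library orders were chosen with earlier results of these data known. Named genes are the members, the targeted genes, Krt10, Krt14, list genes where a count or level turned on them, and the 5 most alike. Positions come from GENCODE M21, and promoters from RefSeq, which had none for Aloxe3. Scripts were tested on simulated data. With 3 counts worth 0.0618 to 0.0764 CPM, lower levels were not resolved, and reads without molecular identifiers are not independent molecules.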

Additional observations from a re-analysis of the deposited data

How the results depend on the processing

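The fitted difference of each member was above 0 with every alternative of scaling, filter, fit, test or RSEM counts, and of the 9 members only Cyp4f39 turned, to -0.12 without the control E434 (range when 1 library was left out -0.12 to 0.89). The number of members called higher was 0 with those alternatives, 0 to 1 when 1 library was left out and 6 without both E434 and E433. Without both, 11 epidermal lipid genes, 2 general sphingolipid genes (Elovl1 and Smpd1), 10 relatives and 15 keratinocyte markers were called, and leaving out 1 library gave 0 to 2, 0 to 2, 0 to 4 and 0 to 2 of them. The upper ends came without the mutant E433. DESeq2's Wald test called 2 relatives and 1 keratinocyte marker. Over all genes, edgeR's test called 9 higher and 8 lower, with no filter 22 and 15, with a robust fit 19 and 16, from RSEM counts 5 and 5, without E433 734 and 353, without both libraries 1418 and 648, and DESeq2's test 355 and 122. The cause of these differences was not tested. No paired analysis was possible because the labels give embryo numbers that differ between the groups and no litter. Counting error limits what can be said of members in E434, a library of 46935412 counts in which 4 of 9 members had 3 counts or fewer. The exact tests of ratios cannot go below 0.1 with 3 libraries against 3.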
